A study of Rattus norvegicus with 8 samples.

Results

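Rab genes encode the largest family of small GTPases that direct vesicle traffic between the compartments of a cell. Here their transcripts were counted by whole transcriptome termini site sequencing (WTTS-seq), which places each read at the polyadenylation site where an RNA ends. The tissue was hypothalamus, taken from 8 Long-Evans rats, all adult males. The members were the protein-coding sites whose gene symbol began with Rab followed directly by a digit. This gave 290 of 73922 sites, from 51 of 12255 genes. Of these genes, 45 encode GTPases (241 sites) and 6 encode proteins that bind or regulate them (49 sites): Rab11fip2, Rab11fip3, Rab11fip4, Rab11fip5, Rab3gap2 and Rab3ip. The labels placed 4 rats in a diet-induced obesity group, which ate a high fat diet without restriction, and the other 4, on standard chow, in a control group. Brains were taken after 36 days, and each rat gave 1 library. Both groups shared strain, sex, life stage and tissue, and the labels named no transgene or drug.

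A Rab protein works as a switch. Exchange factors load it with GTP on a given membrane, effectors then recognise the GTP-bound form and move, tether or fuse the vesicle, and GTPase-activating proteins return it to the GDP-bound form. GDP dissociation inhibitors take the prenylated, GDP-bound protein off the membrane and carry it back to its donor compartment. In neurons, Rab3 proteins sit on synaptic and neuropeptide vesicles, Rab5 and Rab4 serve early endosomes and rapid recycling, Rab11 serves the recycling endosome, Rab6 the Golgi, and Rab7 the late endosome and lysosome.

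The libraries held between 1417531 and 1957726 reads. Together they gave 48087 reads at Rab sites out of 13341135. Rab sites took 0.386%, 0.375%, 0.366% and 0.352% of the reads of the control libraries 1 to 4, and 0.319%, 0.342%, 0.394% and 0.344% in obesity. The ranges overlapped, since obesity library 3 lay above every control library. Control averaged 0.370% ± 0.0144 and obesity 0.350% ± 0.0318 (SD, n = 4 each), and the difference of -0.0201 percentage points was smaller than the spread within the obesity group. In these bulk libraries fewer cells of a type and less RNA per cell cannot be told apart.

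Marker lists were read beside the family as a check of the tissue. Levels are given as CPM, the reads of a gene per 1000000 reads assigned to genes in the library, after the TMM scaling described below. All 5 hypothalamic neuropeptide genes were measured, and their summed level ran from 1027 to 1437 CPM in control and from 818 to 1020 in obesity, without overlap. Avp made up most of this sum, at 952 ± 168 CPM in control and 702 ± 82.4 in obesity. Avp and Oxt were each lower in obesity without overlap, while the groups overlapped for Pmch, Hcrt and Agrp. Both had an unadjusted p under 0.05 in edgeR (5.3% of all genes). So did Stmn2 (neuron), Mal (oligodendrocyte), Aldoc (astrocyte) and Csf1r (microglia), all lower in obesity, and Gh1 (pituitary), higher through obesity library 2 alone. Of these further genes only Mal was without overlap. Groups did not overlap in 3.52% of all genes, and in 1.67% in the lower direction. The 5 neuronal markers summed to between 2373 and 3181 CPM in control and between 2317 and 3094 in obesity, the 6 oligodendrocyte markers to between 16700 and 21583 and between 12821 and 20384, and the 5 astrocyte markers to between 1583 and 2263 and between 1231 and 1877. Of the microglial list 2 of 4 genes were measured, with sums of 72.1 to 101 CPM in control and 29.7 to 86.6 in obesity, and the 3 endothelial markers gave 45.2 to 84.1 and 41.3 to 111. Anterior pituitary markers (3 of 4 measured) summed to 17.2 to 55.8 CPM in control and 5.95 to 124 in obesity, with the highest value in obesity library 2. The single choroid plexus marker measured stood at 95.2 CPM in obesity library 4 and at 0 to 1.49 CPM in the control libraries. The part of these differences in the Rab values was not tested.

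Rab genes spanned a wide range of levels, and a few of them supplied most of the reads. Rab7a, the GTPase of late endosomes and lysosomes, alone held 19.1% of all Rab reads and ranked 141st of all 12255 genes. Control libraries 1 to 4 had 1119, 711, 585 and 789 CPM of it, and the obesity libraries 820, 646, 887 and 808. The highest and the lowest of the 8 values were both control libraries, so the groups overlapped. Rab6b, a Golgi GTPase enriched in brain, came second at 555, 478, 625 and 440 CPM in control and 502, 485, 563 and 432 in obesity. The 12 most abundant genes of the set accounted for 67.3% of its reads.

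**Figure D1:**
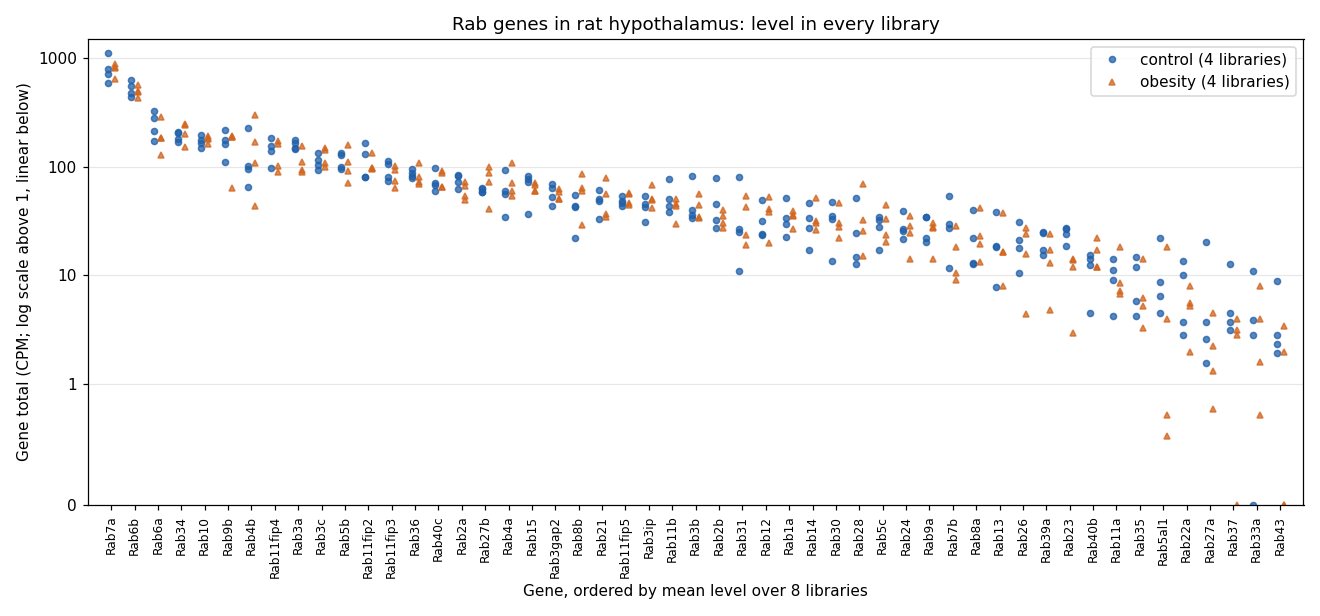
Level of each of the 51 Rab genes in CPM (vertical axis, logarithmic above 1 and linear below) in every library, with genes ordered by their mean over the 8 libraries. Circles are the 4 control libraries and triangles the 4 obesity libraries; Rab7a and Rab6b stand above 400 CPM in every library, and the 8 genes at the right end average under 10.

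Below this pair the levels declined gradually, and the neighbours in the order named here overlapped in at least 1 of the groups. Rab6a (Golgi) averaged 247 ± 67.3 CPM in control and 196 ± 67.3 in obesity. Rab34, a GTPase of the Golgi and the primary cilium read at a single site, averaged 189.5 ± 18.8 and 210.1 ± 43.5, and Rab10, which acts in delivery to the plasma membrane, 171 ± 19.2 and 179 ± 13.0 (SD, n = 4 per group throughout). Rab9b, of the route from late endosome to Golgi, averaged 167 ± 43.6 and 156 ± 61.8 CPM. Rab4b (recycling) averaged 122 ± 71.7 and 155 ± 110, the widest spread relative to the mean among the 12 most abundant GTPases. Rab3a and Rab3c, on secretory vesicles, averaged 159.5 ± 14.6 and 112 ± 30.2, and 112 ± 16.7 and 125 ± 24.6 CPM. Rab5b (early endosome) stood at 114 ± 18.6 and 108 ± 38.3, Rab36, of late endosomes, at 85.7 ± 7.32 and 82.5 ± 17.4, and Rab40c, a GTPase that recruits a ubiquitin ligase, at 74.1 ± 16.01 and 77.4 ± 14.2.

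Of the 51 genes, 12 averaged 100 CPM or more over the 8 libraries, 31 between 10 and 100, and 8 under 10. The last 8 included Rab27a, the GTPase of melanosomes and secretory granules, Rab35, Rab22a and Rab11a, which serve endosomes, and Rab37, of secretory granules. Rab43, the lowest, had 2.83, 1.94, 2.35 and 8.93 CPM in control and 0, 0, 3.40 and 1.98 in obesity. A count of 0 allows a level of up to 3 reads, which corresponded to between 1.70 and 2.38 CPM depending on the library, so no difference was detectable for Rab43 at this depth.

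Closely related family members were expressed very unequally. Since each read marks an RNA end, reads were compared between genes as ends, without scaling by length. Copies made by amplification could not be told apart from separate molecules. In all 8 libraries Rab7a exceeded Rab7b (log2 ratio 5.29 ± 0.87, SD, n = 8), a ratio of 39.2. Rab27b exceeded Rab27a by a log2 ratio of 4.58 ± 1.41 and Rab9b exceeded Rab9a by 2.59 ± 0.29, also in all 8. The recycling endosome pair was led by Rab11b, above Rab11a by 2.34 ± 0.71, and among early endosome genes Rab5b exceeded Rab5c by 1.95 ± 0.71. Rab3c exceeded Rab3b by 1.44 ± 0.61, Rab6b exceeded Rab6a by 1.26 ± 0.48, and Rab2a exceeded Rab2b by 0.84 ± 0.41. These 8 of the 11 pairs compared kept 1 order in every library.

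The other 3 pairs changed order between libraries. Rab8b exceeded Rab8a in 6 of 8 libraries (1.15 ± 1.25 on the log2 scale), Rab4b exceeded Rab4a in 6 of 8 (0.88 ± 1.11), and Rab3a exceeded Rab3c in 6 of 8 (0.18 ± 0.57). Control libraries averaged a log2 ratio of Rab3a to Rab3c of 0.52 ± 0.26, and obesity libraries one of -0.17 ± 0.61 (SD, n = 4 each). The pairs outside the Rab3, Rab5, Rab6, Rab7 and Rab11 subfamilies were added after their values were seen, and these ratios are descriptions without a test. Rab5al1, a gene annotated as similar to Rab5a, was read at 1 site at 0.566 to 21.9 CPM. Reads of near-identical copies cannot be assigned with certainty, so its level is uncertain.

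The strand of the reads limited what some totals mean. In 7 of the 51 genes sites lay on both strands. The strand with fewer reads carried 49.3% of the reads of Rab4a, 40.6% of Rab5b, 19.7% of Rab30, 15.8% of Rab27b, 12.4% of Rab11fip4, 9.0% of Rab28 and 4.20% of Rab40c. For 40 genes of the set a strand was listed in RefSeq (GRCr8 assembly), and for 38 of these (95%) it was the strand with most reads, against 88.6% of 8374 genes overall. The 2 exceptions were Rab4a and Rab28, whose main sites lay opposite to the listed strand. Assemblies differ between the table and the list, and reads of a neighbouring or antisense transcript cannot be separated from those of the gene at such sites. With only the major strand of each gene, the log2 ratio of Rab4b to Rab4a was 2.04 and that of Rab5b to Rab5c 1.21. For Rab4a this kept the reads on the strand opposite to the listed one, so 2.04 is uncertain.

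Rab genes ended at many places. The median gene of the set had 5 sites, compared with 3 in the 10695 protein-coding genes outside it, and its median total was 510 reads, compared with 264. Single-site genes made up 25.5% (13 genes) of the set and 28.8% of the other protein-coding genes. Rab6b had 27 sites, the most in the set, and 9 genes had 10 or more. Among the 37 genes with at least 2 sites on their main strand, the most 3′ site held a median of 17.8% of the gene's reads, against 24.7% in 7360 other genes, and it was the most used site in 37.8%, against 35.6%. Genes with more reads pass the detection limit at more sites, so site numbers and read totals are not independent measures.

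The most used end was often upstream of the last one. Rab7a put 73.5% of its reads at chr4:119911637-119911656 (Rnor_6.0, minus strand), the 8th of its 10 sites in the direction of transcription, and 6.33% at the 10th. By library, the 8th site held 87.8%, 74.3%, 68.0% and 60.3% of the reads in control and 86.2%, 76.1%, 77.5% and 51.0% in obesity. Libraries numbered 1 were the highest and libraries numbered 4 the lowest in both groups. Rab6a divided its reads over chr1:165662309-165662333 (31.2%), chr1:165663802-165663831 (28.5%) and chr1:165664044-165664073 (17.1%, all plus strand), the 8th to 10th of 11 sites. Rab10 had no dominant end, and its most used site, the 14th of 18, held 16.9%. Rab3a, in contrast, placed 98.0% of its reads at chr16:20435130-20435186 (minus strand), the last of 2 sites. Whether a site fell in an exon, an intron or a UTR was not determined here.

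**Figure D2:**
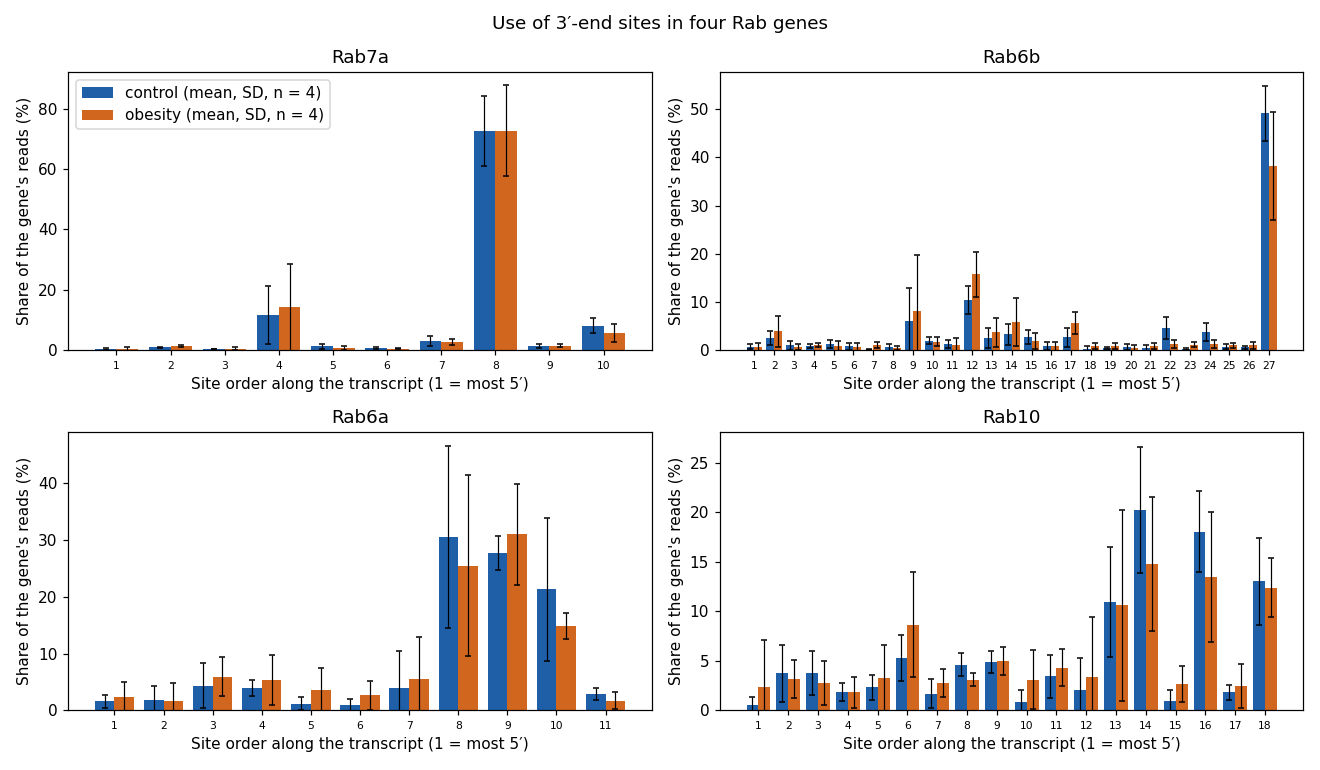
Share of each gene's reads (%) at its successive 3′-end sites, numbered from the most 5′ to the most 3′, for Rab7a, Rab6b, Rab6a and Rab10; bars are means of 4 libraries per group and whiskers their SD. Rab7a peaks at its 8th site in both groups, Rab6b at its last, and the bars of Rab10 are spread over many sites.

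The design asked whether the hypothalamic 3′ ends differ between obese and control rats. No Rab gene passed the threshold. With the quasi-likelihood test of edgeR on gene totals, 0 of 51 members had an adjusted p under 0.1, against a background of 0% of the 12255 genes. At an unadjusted p under 0.05 there were 2 of 51 members (3.92%), both lower in obesity, against 5.3% of all genes and 2.52% in the lower direction. DESeq2 also gave 0 of 51 at an adjusted p under 0.1 (background 0.0245%) and 2 of 51 at an unadjusted p under 0.05 (background 6.05%). At the unadjusted threshold the members' share over both directions lay below these backgrounds. In the lower direction of edgeR it lay above the background, resting on 2 genes, and that split was not tested.

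Library numbers 1 to 4 recur in both groups and marked a shared deviation over all genes, so the fit was repeated with the number as a block. It gave 0 of 51 members at an adjusted p under 0.1 in edgeR, against 0.122% of all genes, and 4 of 51 (7.84%) at an unadjusted p under 0.05, all lower, against 10.9% of all genes and 5.83% in the lower direction. In the fit without the block, where 2 members had an unadjusted p under 0.05, leaving out obesity library 2 gave 5 and leaving out control library 4 gave 0. Leaving out control library 1, or obesity library 1, 3 or 4, gave 1.

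Log2 differences of the members ran from -1.61 to 0.55 with a median of -0.07, compared with 0.01 over all genes. They were below 0 in 33 of 51 members (64.7%), against 49.2% of all genes, and with the block in 29 of 51 (56.9%), against 51.3%. The median of the 95% intervals reached 0.73 to either side on the log2 scale, and for 30 members the whole interval lay within a 2-fold difference in either direction. For those 30 a larger difference than 2-fold was outside the interval, while for the other 21 it was not.

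**Figure D3:**
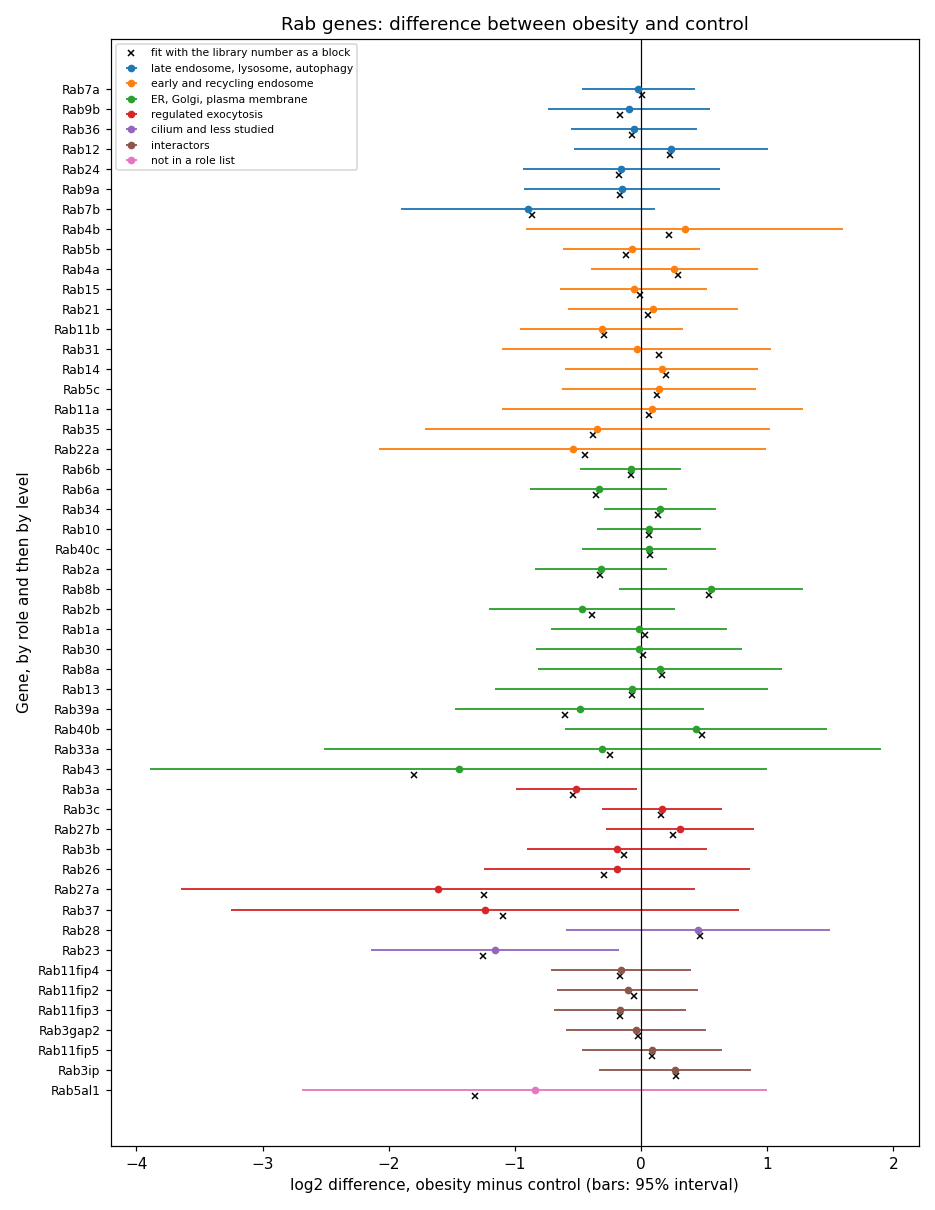
Log2 difference of each Rab gene total, obesity minus control (horizontal axis), grouped by role and ordered by level within a role; points are edgeR estimates from 4 libraries per group, bars their 95% intervals, and crosses the estimates with the library number as a block. The bars of Rab3a and Rab23 lie wholly below 0 and those of the other 49 genes include 0.

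Secretory vesicle GTPases held the better measured of the 2 members. Rab3a, which regulates release of synaptic vesicles, stood at 177, 148, 146 and 167 CPM in control and at 111, 155, 88.9 and 93.2 in obesity. Obesity libraries 1, 3 and 4 lay below every control library, while obesity library 2 lay within the control range. The log2 difference was -0.51 (SE 0.23, edgeR adjusted p = 0.904), and -0.54 (SE 0.19, edgeR adjusted p = 0.267) with the block. Leaving out 1 library at a time gave differences between -0.71 and -0.41.

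The site that held nearly all Rab3a reads had 139, 131, 133 and 147 CPM in control and 82.1, 130.9, 78.4 and 76.2 in obesity. Obesity library 2 stood level with the lowest control library there, and just under it. Site CPM were scaled on all site reads and gene CPM on reads assigned to genes, and the gene total also holds the reads of the other site. The groups were separate by this small margin at the site and overlapped in the gene total. Over the 7 exocytosis genes the summed level was 413 ± 9.90 CPM in control and 377 ± 26.0 in obesity. Rab3a alone fell by more than this sum, from 159.5 ± 14.6 CPM in control to 112 ± 30.2 in obesity. Of the 7 exocytosis genes, 5 had log2 differences below 0 (49.2% of all genes), with a median of -0.19. Rab3a itself was the 1 gene of the 7 with an unadjusted p under 0.05 in edgeR (5.3% of all genes). Rab3c (0.17, SE 0.23) and Rab27b, which docks secretory granules (0.31, SE 0.28), had estimates above 0. Rab3b, the third Rab3 form, had -0.19 (SE 0.34), and its 36.0, 40.0, 83.0 and 33.5 CPM in control rested on 1 high library beside 34.2, 56.4, 44.2 and 33.7 in obesity.

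The other member was Rab23, a GTPase that acts at the primary cilium and restrains hedgehog signalling. Its control libraries had 24.0, 26.5, 18.8 and 27.5 CPM and its obesity libraries 2.97, 11.9, 14.2 and 13.9. All 4 obesity libraries lay below all 4 control libraries. Rab23 was the single member of 51 (1.96%) whose groups did not overlap, against 3.52% of all genes and 1.67% in the lower direction. The log2 difference was -1.16 (SE 0.47, edgeR adjusted p = 0.904) and -1.25 (SE 0.45, edgeR adjusted p = 0.290) with the block. It stayed between -1.32 and -0.86 when any 1 library was left out. The gene was shallow, with 201 reads over 4 sites in the 8 libraries. Rab28, the other GTPase listed with the cilium, had an estimate of 0.45 (SE 0.49) and values of 51.6, 24.5, 14.9 and 12.6 CPM in control and 69.0, 15.1, 32.3 and 25.8 in obesity, highest in both libraries numbered 1.

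Late endosomal and lysosomal genes gave estimates below 0 in 6 of 7 cases (49.2% of all genes), with a median of -0.10. Rab7a itself had -0.02 (SE 0.21) without and 0.01 (SE 0.15) with the block, and its 95% interval from -0.47 to 0.43 covered differences in either direction. Rab7b, expressed in the endolysosomal route to the Golgi, had 53.7, 11.6, 29.7 and 27.5 CPM in control and 28.2, 18.3, 9.06 and 10.6 in obesity. Its groups overlapped, since control library 2 lay in the obesity range and obesity library 1 stood just above control library 4. The log2 difference was -0.90 (SE 0.48, edgeR adjusted p = 0.907), and with the block -0.86 (SE 0.40, edgeR adjusted p = 0.433). Leaving out 1 library at a time gave -1.28 to -0.50, the latter without control library 1. Rab9b had 112, 178, 163 and 217 CPM in control and 63.9, 190, 186 and 186 in obesity, the lowest value of either group being in its library 1, with a difference of -0.10 (SE 0.30). Rab24, linked to autophagy, Rab36 and Rab9a had differences of -0.16 (SE 0.37), -0.06 (SE 0.24) and -0.15 (SE 0.37), and Rab12, which acts on recycling cargo bound for lysosomes, 0.24 (SE 0.37).

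Genes of the secretory pathway and of delivery to the plasma membrane were the largest group, with 16 members. Their median difference was -0.04, with 10 estimates below 0 (62.5%, against 49.2% of all genes). Rab6a had 173, 323, 279 and 212 CPM in control and 127, 288, 185 and 183 in obesity. Every obesity library lay below the control library of the same number, although the groups overlapped widely. The share of all genes with such an order was not counted. The log2 difference of Rab6a was -0.34 (SE 0.26, edgeR adjusted p = 0.928), and the block narrowed the error to give -0.35 (SE 0.16, edgeR adjusted p = 0.396). Leaving out 1 library at a time moved it between -0.59, without obesity library 2, and -0.18, without obesity library 1 or control library 2. Rab6b stood at -0.08 (SE 0.19), Rab10, which takes part in moving the glucose transporter GLUT4 to the cell surface, at 0.06 (SE 0.20), Rab34 at 0.15 (SE 0.21) and Rab40c at 0.06 (SE 0.25). Rab2a, which acts between endoplasmic reticulum and Golgi, had -0.32 (SE 0.25) and Rab1a, which acts on the same route, -0.02 (SE 0.33). Rab8b, of polarised delivery, had the highest estimate of the set at 0.55 (SE 0.35, 95% interval -0.18 to 1.28).

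Early and recycling endosome genes were evenly divided, 6 of 12 below 0 (49.2% of all genes), with a median of 0.03. Rab5b (-0.07, SE 0.26) and Rab5c (0.14, SE 0.36), both of the early endosome, did not differ beyond their spread, nor did Rab11b (-0.31, SE 0.31) and Rab11a (0.09, SE 0.57). Rab4b varied far more between library numbers than between diets. It had 227, 64.6, 101 and 96.0 CPM in control and 301, 43.7, 169 and 108 in obesity, so that library 1 was the highest and library 2 the lowest in each group. Its SE was 0.56 without the block and 0.20 with it, at log2 differences of 0.35 and 0.23. The block gave a smaller SE for 45 of the 51 members.

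**Figure D4:**
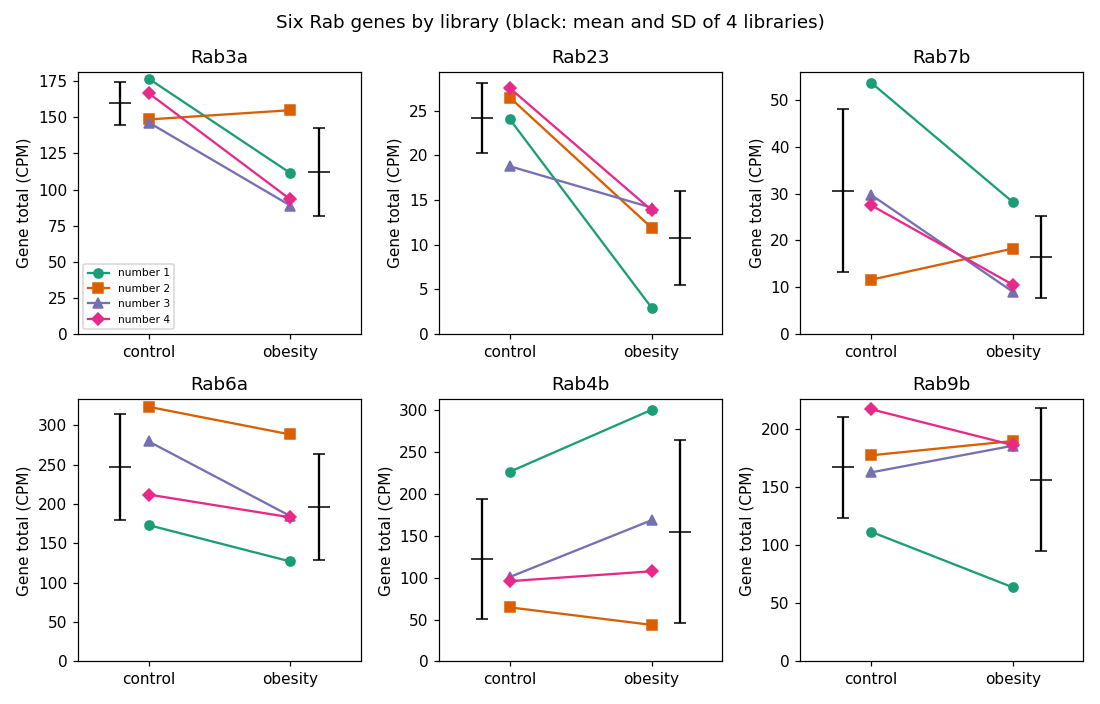
Gene totals in CPM (vertical axes, from 0) of Rab3a, Rab23, Rab7b, Rab6a, Rab4b and Rab9b in the control and obesity libraries, with lines joining libraries of the same number; black bars give the mean and SD of 4 libraries. All 4 lines run downward for Rab23 and Rab6a, 3 of 4 for Rab3a and Rab7b, and the lines of Rab4b start and end in nearly the same order.

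The 6 interactors showed estimates from -0.17 to 0.27. Rab11fip4, Rab11fip2 and Rab11fip3, which link Rab11 to motors and membranes, had -0.16 (SE 0.26), -0.11 (SE 0.26) and -0.17 (SE 0.25), and Rab11fip5 had 0.09 (SE 0.26). Rab3gap2, a subunit of the Rab3 GTPase-activating complex, had -0.04 (SE 0.26), and Rab3ip, an exchange factor also called Rabin8, had 0.27 (SE 0.29). The other subunit of that complex, Rab3gap1, was given a different biotype in the table and was not a member. Its 13 sites had a log2 difference of 0.29 (SE 0.26, edgeR adjusted p = 0.947).

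Single sites were examined next, since a shift between ends can leave a gene total level. No Rab site passed an adjusted p under 0.1 in edgeR (0 of 290, background 0.00135%). At an unadjusted p under 0.05 there were 10 of 290 (3.45%), against 3.14% of all sites, with 3 higher in obesity (1.03%, background 1.72%) and 7 lower (2.41%, background 1.41%), and DESeq2 gave 12 (4.14%, background 3.83%) with 0 at an adjusted p under 0.1 (background 0.0135%). The block raised the edgeR count to 20 (6.9%), against 6.09% of all sites, with 3 higher (1.03%, background 2.79%) and 17 lower (5.86%, background 3.31%). It also gave 0 at an adjusted p under 0.1 (background 0.00541%). Groups did not overlap at 9 of 290 sites (3.1%), against 3.11% of all sites. The shares of both directions together were close to the background, while the lower direction lay above it and the higher direction below it. No test of that split was made.

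Of the 122 Rab sites with a mean of at least 10 reads, 4 (3.28%) had an unadjusted p under 0.05 in edgeR, all lower in obesity. Of the 25628 such sites overall 4.71% did, and 2.35% in the lower direction. A pair of them lay near the 3′ end of Rab6b on the plus strand. At chr8:111666098-111666111, the 22nd of its 27 sites, the libraries held 19, 58, 33 and 22 reads in control and 3, 14, 11 and 7 in obesity, without overlap (log2 difference -1.99, SE 0.59, edgeR adjusted p = 1.00). With the block the edgeR adjusted p at that site was 0.241. At chr8:111667797-111667824, the 24th, they held 48, 32, 23 and 10 reads in control and 10, 3, 7 and 16 in obesity (-1.75, SE 0.60), with overlap through control library 4 and obesity library 4.

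The remaining pair belonged to less abundant genes. At chr13:48481567-48481589, the last of 3 sites of Rab7b, there were 45, 17, 33 and 36 reads in control and 22, 10, 14 and 16 in obesity (-1.22, SE 0.47), and control library 2 fell inside the obesity range. At chr1:157663557-157663562, the 4th of 5 plus-strand sites of Rab30, a Golgi GTPase, there were 6, 16, 14 and 39 in control and 2, 5, 11 and 10 in obesity (-1.59, SE 0.71). Without control library 4 this difference was -0.93. The total of Rab30 differed by -0.01 (SE 0.39).

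Use of sites within a gene could be tested in 38 members. In edgeR's test of site usage, with a Simes p per gene, 0 of 38 had an adjusted p under 0.1 (background 0.0121% of 8276 genes) and 0 of 38 had an unadjusted p under 0.05 (background 1.82%). With the block 1 of 38 (2.63%, background 3.11%) had an unadjusted p under 0.05 and 0 an adjusted p under 0.1. This was Rab6b, with an unadjusted Simes p of 0.0351 with the block and 0.474 without it. The sites behind the value with the block were not singled out. Without the block, relative use was lower in obesity at its 22nd (log2 coefficient -1.85) and 24th (-1.61) sites. The shares of the last and 12th sites are given as a description. The last site of Rab6b, chr8:111668801-111668828, held 42.5%, 47.7%, 56.2% and 50.3% of the gene's reads in control and 29.9%, 54.6%, 36.8% and 31.7% in obesity. Obesity libraries 1, 3 and 4 lay below all control libraries and obesity library 2 within their range, as for Rab3a. The means were 49.2% ± 5.69 and 38.2% ± 11.3, and the 12th site, chr8:111657896-111657911, took 10.4% ± 2.98 and 15.7% ± 4.69. Obesity library 2 also had the highest pituitary marker sum and a mitochondrial share of 6.99% of reads, within the control range of 5.32% to 8.27% and above the other obesity libraries. Their part in the Rab6b and Rab3a values was not tested.

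Regulators and effectors of Rab proteins were read from a list of 124 genes in 5 roles, of which 99 were measured. The roles are those of the list and were not tested here. None had an adjusted p under 0.1 in edgeR (0 of 99), and 6 of 99 (6.06%) had an unadjusted p under 0.05, against 5.3% of all genes. Of these, 3 were higher in obesity (background 2.77%) and 3 lower (background 2.52%). With the block 11 of 99 (11.1%) did, against 10.9% of all genes, with 7 higher (background 5.03%) and 4 lower (background 5.83%), and again 0 had an adjusted p under 0.1. Without obesity library 2 the unadjusted count was 11, and without control library 1 or obesity library 4 it was 3. Log2 differences were below 0 in 39 of 99 genes (39.4%), against 49.2% of all genes, and their median was 0.04.

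In the prenylation and membrane insertion group, 3 of 5 listed genes were measured, with 2 of 3 estimates below 0 (49.2% of all genes) and a median of -0.19. With the block 1 of 3 was below 0 (51.3% of all genes) and the median turned to 0.06. Rabggta, the alpha subunit of the geranylgeranyl transferase that attaches lipid anchors to Rab proteins, had 31.8, 32.9, 47.7 and 37.9 CPM in control and 60.1, 42.1, 84.9 and 70.0 in obesity. Each obesity library exceeded the control library of its number, an order not counted over all genes, and the ranges overlapped at obesity library 2. The log2 difference was 0.78 (SE 0.29, edgeR adjusted p = 0.904), and 0.75 (edgeR adjusted p = 0.243) with the block. Its partner subunit Rabggtb was far lower, at 8.76 ± 8.89 CPM in control and 6.90 ± 3.28 in obesity. Rabac1, a membrane protein that binds prenylated Rabs, was the most abundant of the group at 319 ± 73.1 and 281 ± 64.6 CPM (-0.19, SE 0.22).

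GDP dissociation inhibitors and escort proteins (3 of 4 measured) had 3 of 3 estimates below 0 (49.2% of all genes), with a median of -0.23. Gdi2, a widely expressed inhibitor, had -0.47 (SE 0.33), and Chm, which presents Rabs for prenylation, had -0.23 (SE 0.35).

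Exchange factors (26 of 31 measured) had a median of 0.09, with 7 of 26 estimates below 0 (26.9%, against 49.2% of all genes). Sbf2, a myotubularin-related protein with an exchange factor domain, had 129, 102, 124 and 126 CPM in control and 211, 122, 181 and 197 in obesity, where library 2 alone fell among the controls (0.56, SE 0.22, edgeR adjusted p = 0.904, and 0.214 with the block). The 2 most abundant, Dennd5a and Gapvd1, had 0.06 (SE 0.24) and 0.02 (SE 0.24). With the block 5 of 26 (19.2%) had an unadjusted p under 0.05, 3 higher and 2 lower in obesity, against 10.9% of all genes. The 3 higher were Sbf2, Dennd2a (96.0 ± 10.2 CPM in control and 131 ± 16.4 in obesity) and Ankrd27, an exchange factor for Rab21. The 2 lower were Dennd4c, of the DENN domain family, and Rgp1, a partner in the exchange complex for Rab6.

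GTPase-activating proteins (31 of 36 measured) had a median of 0.02, with 14 of 31 below 0 (45.2%, against 49.2% of all genes). Sgsm1 had 105, 140.1, 160 and 183 CPM in control and 229, 180, 193 and 224 in obesity, overlapping through control library 4 (0.49, SE 0.22, edgeR adjusted p = 0.904). Tbc1d10a was lower, at 32.5, 17.4, 15.7 and 23.8 CPM in control and 14.1, 4.77, 13.6 and 3.30 in obesity, without overlap (-1.30, SE 0.52, edgeR adjusted p = 0.904). Its abundant relative Tbc1d10b had -0.05 (SE 0.20) and Tbc1d5, of the retromer and Rab7 route, 0.30 (SE 0.22). Tbc1d8 joined with the block, at 34.2 ± 23.4 CPM in control and 52.7 ± 14.9 in obesity (edgeR adjusted p = 0.294).

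Genes listed as effectors (36 of 48 measured) had a median of 0.05, with 13 of 36 below 0 (49.2% of all genes). Bicd2, the adaptor that couples Rab6 vesicles to dynein, had 233, 178, 223 and 173 CPM in control and 139, 172, 139 and 119 in obesity. The groups were separate, though obesity library 2 stood close to control library 4. Its log2 difference was -0.51 (SE 0.21, edgeR adjusted p = 0.904), and the edgeR adjusted p with the block was 0.252. Rims3, a small active zone protein of the Rim family, stood in this list, and whether its protein binds a Rab was not examined. It had 24.7, 1.94, 10.2 and 8.18 CPM in control and 2.97, 3.97, 2.27 and 3.96 in obesity. Control library 1 carried much of the control mean, and the groups overlapped through control library 2. The log2 difference was -1.75 (SE 0.74, edgeR adjusted p = 0.904), and -1.43 with the block (edgeR adjusted p = 0.506), where its unadjusted p no longer lay under 0.05. Rims1, a Rab3 effector of the active zone, averaged 206 ± 18.3 and 279 ± 70.0 CPM (0.44, SE 0.21, edgeR adjusted p = 0.904), and 0.365 was its edgeR adjusted p with the block. The most abundant effectors, Rph3a (rabphilin), Rims2 and Osbpl1a, differed by 0.03 (SE 0.25), 0.04 (SE 0.20) and 0.04 (SE 0.20). Groups did not overlap in 4 of 99 regulators (4.04%, background 3.52%), with lower values in obesity for Bicd2 and Tbc1d10a and higher ones for Dennd2a and Bicdl1, an adaptor of the bicaudal D group.

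**Figure D5:**
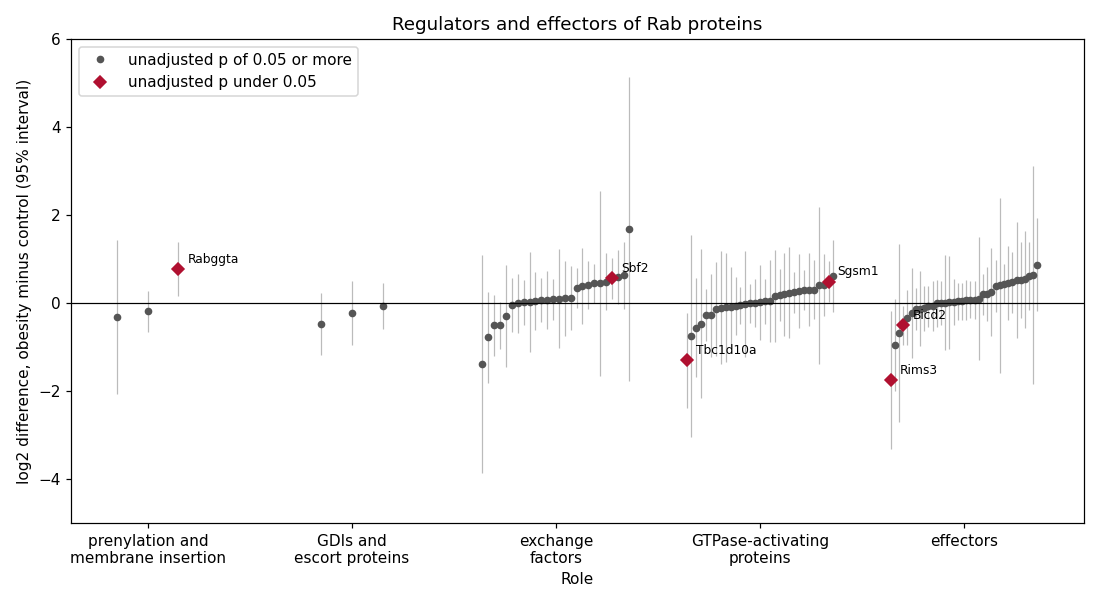
Log2 difference, obesity minus control (vertical axis), of the 99 measured genes listed as regulators and effectors of Rab proteins, by listed role (horizontal axis), with 95% intervals from edgeR; diamonds mark the 6 genes with an unadjusted p under 0.05. Rabggta, Sbf2 and Sgsm1 lie above 0 and Tbc1d10a, Rims3 and Bicd2 below it, and most other points lie close to 0.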

How the data were processed

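WTTS-seq libraries were made from hypothalamic total RNA, per the labels by fragmentation, poly(A) enrichment, first strand synthesis, size selection and amplification. The authors deposited unnormalized counts of reads at each polyadenylation site; the submitters' processing notes name Bowtie2 2.2.3 and the Rnor_6.0 assembly without their roles, and the rules for clustering and filtering sites were not given in the sources used here. The paper linked to these libraries describes another exposure than the diets of the labels, and the groups are those of the labels. The lowest site total was 30 reads, and a minimum of 16 reads removed 0 sites. A line without a site was left out.

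Counts were summed per gene over all its sites and tested with edgeR 4.0.16 (TMM scaling, robust quasi-likelihood F test, R 4.3.3) over all genes or all sites, with Benjamini-Hochberg adjustment and a threshold of 0.1. CPM are reads per 1000000 reads of the TMM-adjusted library. SE was derived from the F statistic. Site usage was tested with diffSpliceDGE. Alternatives were DESeq2 1.42.0, its size factors, filterByExpr, the major strand, leaving out each library and the library number as a block. The fits were tested on simulated data. Deviations from group means correlated at 0.22 to 0.33 between libraries of the same number and at -0.18 to 0.05 between others over all genes, so the numbers were taken as pairs, although no label tells what libraries of 1 number have in common. Over the 51 members alone the correlations ran from -0.16 to 0.17 for the same number and from -0.34 to 0.46 for different numbers. These ranges overlapped, so the correlations did not show the pairing among the members. The block gave a smaller SE for 45 of the 51 members. Each SE draws in part on a spread estimated over all genes, so this count does not show pairing among the members either. P-values without the block measure the spread between the rats of a group, with that of the library number included. Those with the block measure the spread that remains once the number is fitted.

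Members and lists were chosen with earlier results of these data known. Named were the 12 most abundant GTPases, the Rab3, Rab5, Rab6, Rab7 and Rab11 genes, any member or regulator with an unadjusted p under 0.05 with or without the block, the 3 most abundant regulators of each role, and up to 5 sites per direction with a mean of at least 10 reads and an unadjusted p under 0.05. Other members named were chosen after their values were seen. Of the regulators this rule names, 1 is not reported here. All 51 symbols were found in the RefSeq gene table (GRCr8), used for names and a check of chromosomes. Strands came from a list of promoters that held 40 of them. Amplified reads carried no molecular identifiers, so counts of 0 and their floors cover counting error only.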

Additional observations from a re-analysis of the deposited data

Results flagged for a closer look

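In 50 checks of groups of 4 libraries, 5 values stood apart from the other 3 libraries of their group by Dixon's test at the 95% level, where chance gives about 1 in 20, or 2. Rab9b, of the late endosome, was at 63.9 CPM in obesity library 1, while the other obesity libraries had 186 to 190. Rab3b, on secretory vesicles, was at 83.0 CPM in control library 3, beside 33.5 to 40.0 in the others. Rab11a, of the recycling endosome, was at 18.1 CPM in obesity library 3, beside 6.68 to 8.59. The last site of Rab7b was at 9.78 CPM in control library 2, beside 23.7 to 25.3. Rab sites took 0.536% of the protein-coding reads in obesity library 3, beside 0.461% to 0.472%. The cause of these values was not tested.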

How the results depend on the processing

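In edgeR the count of results with an adjusted p under 0.1 was 0 for Rab gene totals, sites, site usage and regulators under every alternative run. Counts at an unadjusted p under 0.05 moved. With the replicate block, which pairs libraries of the same number, they were 4 for gene totals (2 without it), 20 for sites (10), 1 for site usage (0) and 11 for regulators (6); the block with the major strand alone, chosen after seeing the data, gave 4 genes and 10 regulators. The filterByExpr filter left 3 sites. Leaving out 1 library at a time gave 0 to 5 genes, 6 to 19 sites, 0 to 1 genes for site usage and 3 to 11 regulators. The highest counts of genes (5), sites (19) and regulators (11) came without obesity library 2, and the lowest without control library 4 for genes (0) and control library 3 or 4 for sites (6). The cause was not tested. The median log2 difference of the members lay between -0.14 and -0.03 without each library in turn, and the difference in the share of reads between -0.0349 and -0.00976 percentage points. The differences of Rab3a, Rab23, Rab7b, Rab6a and the 4 described sites kept their sign in all alternatives run for them; with the block the sign changed for 4 of 51 members (among them Rab7a, Rab1a and Rab30, all within 0.0328 of 0 without it) and 6 of 99 regulators (among them Rph3a, Gapvd1 and Rabggtb). Depth limited the set to a median of 67.5 reads per site over the 8 libraries, and 172 of 290 sites were read in all 8.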
